A study of Mus musculus with 16 samples.

Results

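The genes described here are the collagens other than type IV, taken as every gene symbol made of Col, a number, the letter a and a further number, without those beginning Col4a. The rule found 35 of the 20325 gene names in the RNA files, and it uses no measured value. They were followed across 13 mouse RNA libraries of OG2 transgenic cells, with 1 library per group. Embryonic stem cells (ESC, passage 5) carried a c-Jun TetOn construct and were taken at 36 h with doxycycline, which switches c-Jun on, or without it, and a wild-type (WT) ESC library was included. Embryonic fibroblasts (MEF, passage 2) overexpressed c-Jun, c-JunDN, Jdp2, Oct4 or DR, and a WT MEF library was included. In the KSM libraries, MEF received Klf4, Sox2 and c-Myc together with Oct4, c-JunDN, Jdp2 or DR, and RNA was taken on day 3 of reprogramming. The labels do not expand DR, which was used as the matched control. All the cells carry the OG2 transgene on a mixed 129SVJ, C57B6 and CBA background. The labels give neither the number of ESC clones nor a day for the MEF cultures. The study asked how c-Jun moves ESC away from their state, why it blocks reprogramming, and how c-JunDN and Jdp2 can stand in for Oct4.

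Collagens are secreted or membrane proteins whose chains wind into triple helices. Fibrillar collagens (types I, II, III, V and XI, among others) form the cables of skin, bone, tendon and cartilage, and fibroblasts are their main source. Fibril-associated collagens coat those cables, beaded-filament collagen VI links cells to the matrix, and type VII forms the anchoring fibrils that tie epithelium to the dermis. Many molecules combine chains from different genes, as type I collagen does with alpha1 chains from Col1a1 and an alpha2 chain from Col1a2. c-Jun is a subunit of the AP-1 transcription factor, c-JunDN is by its name a dominant-negative form, and Jdp2 is a partner of Jun proteins that represses AP-1. Oct4 is the pluripotency factor encoded by Pou5f1.

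Levels are given as CPM, counts set on a common library total after scaling between libraries. Orders, shares of transcripts and chain ratios of different genes are given as TPM, which also allows for gene length. Sums over genes in CPM, and the parts that genes make of them, have no such allowance. A gene was measured in a comparison when 1 of the 2 libraries reached 5 CPM, and it was called higher or lower when log2(CPM + 1) differed by 2-fold or more. Folds are ratios of CPM with a 95% interval that covers counting error only. No difference has a replicate check, and no p-value can be given. The WT libraries were the deepest, with 12173100 expected counts for ESC and 21415021 for MEF. The MEF library with Oct4 held 1841710, counted only on the gene names it shares with the others. The remaining libraries held between 1961268 and 3440917. Outside the WT libraries, 3 counts stood for 0.905 to 1.61 CPM. Each introduced factor stood far above its control. Jun was at 2171 CPM in ESC with doxycycline, against 23.2 CPM without. In MEF it reached 12860 CPM under c-Jun and 4194 CPM under c-JunDN, while the DR library had 94.2 CPM. Jdp2 was at 7728 CPM in MEF with Jdp2 against 81.9 CPM with DR, and Pou5f1 at 10360 CPM in MEF with Oct4 against 2.58 CPM with DR. In KSM cells the levels were 376 CPM of Jun with c-JunDN, 402 CPM of Jdp2 with Jdp2 and 1855 CPM of Pou5f1 with Oct4, and the DR library had at most 72.8 CPM of any of the 3. The files do not tell introduced from native transcripts, and in bulk RNA fewer cells of a type and less RNA per cell cannot be told apart.

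Of the 35 genes, 32 reached 5 CPM in at least 1 library. The other 3 did not: Col17a1, a hemidesmosome collagen, peaked at 4.83 CPM in MEF with c-Jun, Col9a1, a coat collagen of cartilage fibrils, at 4.03 CPM in KSM with c-JunDN, and Col6a4, a collagen VI chain, at 2.19 CPM in ESC with doxycycline. By role the 35 fall into 11 fibrillar, 9 fibril-associated, 4 beaded-filament, 3 short-chain network, 4 transmembrane and 2 multiplexin genes, with the anchoring-fibril gene Col7a1 and Col28a1 on their own. Col6a3, Col6a5 and Col26a1 were not analysed here. Of the 35 genes, 2 overlap another protein-coding gene in the RefSeq annotation, Col10a1 with Nt5dc1 and Col9a3 with Tcfl5, and reads of such pairs may be shared.

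Promoter windows are shown for 4 genes that stand apart in the comparisons below: Col7a1 and its rise in ESC with c-Jun, Col10a1 and Col8a2 in MEF with c-JunDN or Jdp2, and Col6a1, the one collagen whose window held an AP-1 element. Each runs 5′ to 3′ on the gene's own strand over the 250 bases before the transcription start in RefSeq (build GRCm38.p6), at chr9:108953336-108953585 on the plus strand for Col7a1, chr10:34389731-34389980 on the plus strand for Col10a1, chr4:126286544-126286793 on the plus strand for Col8a2 and chr10:76726045-76726294 on the minus strand for Col6a1. Capitals mark the AP-1 element.
Col7a1: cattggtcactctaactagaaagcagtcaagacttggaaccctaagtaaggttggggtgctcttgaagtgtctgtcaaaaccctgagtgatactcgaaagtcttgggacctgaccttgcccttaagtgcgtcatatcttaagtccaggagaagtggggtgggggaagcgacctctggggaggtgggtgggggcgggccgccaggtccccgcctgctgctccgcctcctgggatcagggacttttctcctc
Col10a1: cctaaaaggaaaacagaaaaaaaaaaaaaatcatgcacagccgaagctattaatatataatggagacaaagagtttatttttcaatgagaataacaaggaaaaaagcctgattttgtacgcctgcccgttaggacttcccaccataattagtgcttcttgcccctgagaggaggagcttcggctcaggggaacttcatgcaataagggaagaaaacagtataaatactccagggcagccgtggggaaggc
Col8a2: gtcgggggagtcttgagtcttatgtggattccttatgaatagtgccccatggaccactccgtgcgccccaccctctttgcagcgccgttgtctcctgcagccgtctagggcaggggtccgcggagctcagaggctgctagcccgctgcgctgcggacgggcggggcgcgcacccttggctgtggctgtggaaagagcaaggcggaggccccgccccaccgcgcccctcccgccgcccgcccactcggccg
Col6a1: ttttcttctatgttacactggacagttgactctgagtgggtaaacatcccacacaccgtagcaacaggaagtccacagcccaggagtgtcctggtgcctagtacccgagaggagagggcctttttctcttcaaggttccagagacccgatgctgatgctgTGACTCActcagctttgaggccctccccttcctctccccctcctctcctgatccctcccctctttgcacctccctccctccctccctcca
RefSeq gave 31 such windows for 28 of the 35 genes. The other 7, Col1a1, Col2a1, Col5a2, Col9a3, Col12a1, Col14a1 and Col22a1, had no window and were not searched. The AP-1 letters TGANTCA, which read the same on both strands, stood in 1 of the 31 collagen windows (3.23%) and in 6.75% of the 32851 windows of all genes. The match in Col6a1 was TGACTCA and began 90 bases before the start. The longer AP-1 and CREB letters TGACGTCA stood in none of the 31 windows and in 1.55% of all windows, and no site holds both motifs. A match is a run of letters and does not show binding.

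Collagen RNA was far more abundant in MEF than in ESC or KSM cells. The 35 genes together made up 0.775% of all transcripts (TPM) in MEF with c-Jun, 1.67% with c-JunDN, 1.57% with Jdp2 and 0.67% with Oct4, against 1.73% with DR and 2.97% in WT MEF. The share was 0.0758% in KSM cells given Oct4, 0.102% in those given c-JunDN and 0.14% in those given Jdp2, against 0.0821% in those given DR. In ESC it was 0.0961% with doxycycline, against 0.0251% without and 0.0739% in WT ESC. Every one of the 6 MEF libraries therefore lay above all 7 others, and within MEF the c-Jun and Oct4 libraries were the lowest.

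**Figure D1:**
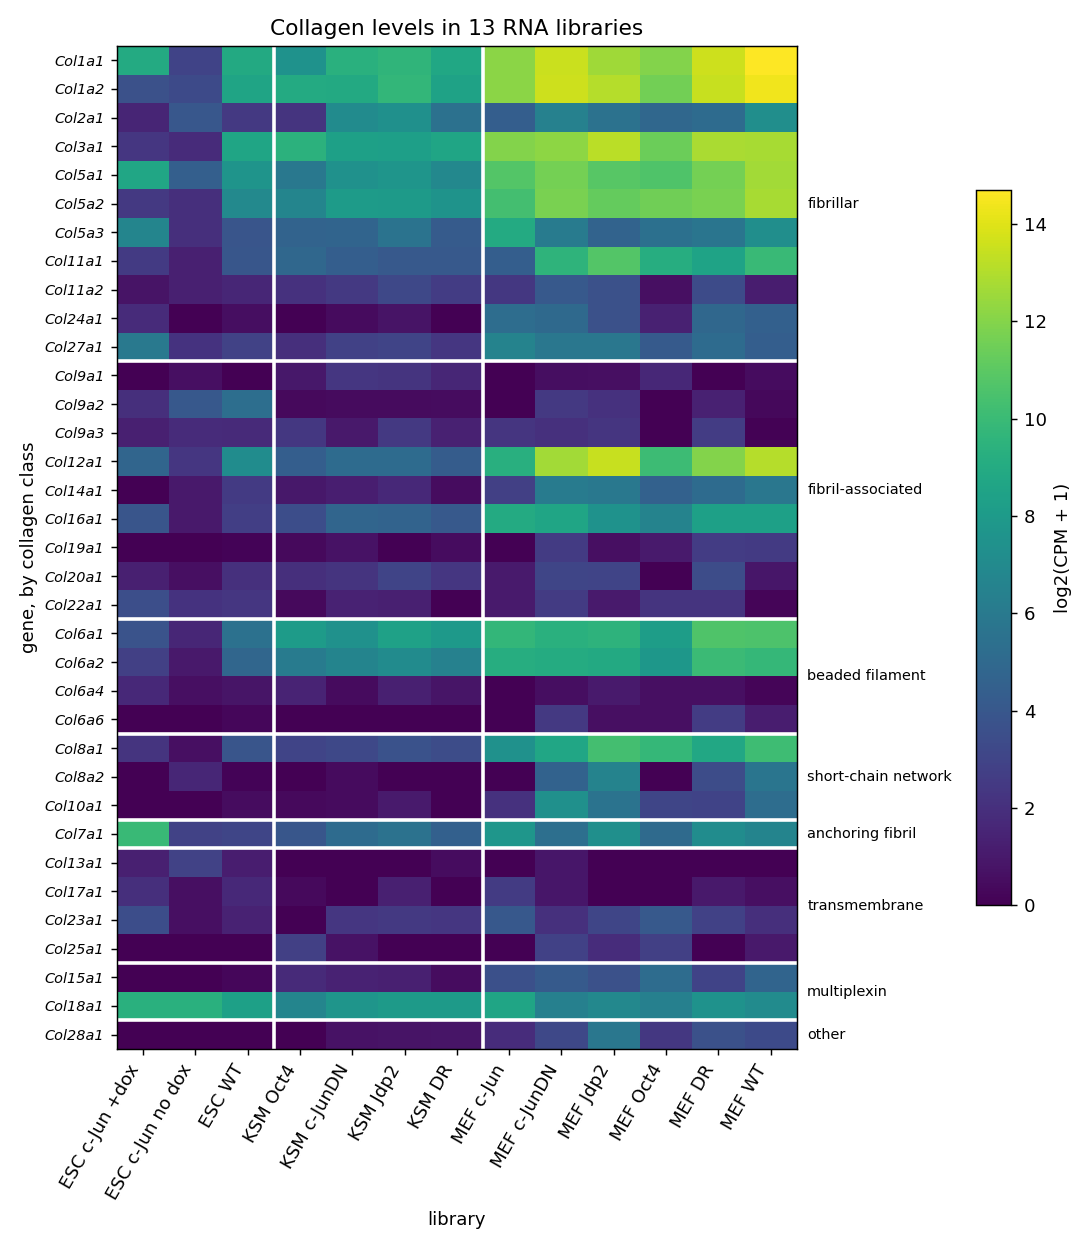
Level of each of the 35 collagens (rows, grouped by class) in each of the 13 RNA libraries (columns), as log2(CPM + 1), where yellow is high and dark blue is low. For 13 collagens, Col1a1, Col1a2, Col3a1 and Col12a1 among them, each of the 6 MEF columns on the right is higher than any other column, while the highest column for Col7a1 is ESC with doxycycline. How many of all genes share the order of those 13 was not computed.

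The 3 interstitial genes Col1a1, Col1a2 and Col3a1, which encode types I and III of skin and vessel wall, held most collagen transcripts in fibroblasts. They made up 60 to 74.6% of the summed collagen TPM over the 6 MEF libraries and 53.1 to 63.5% over the 4 KSM libraries. In ESC the share was 25.2% with doxycycline, against 2.41% without and 60% in WT. In MEF with DR the most abundant were Col1a1 at 5344 TPM, Col1a2 at 4536 TPM, Col3a1 at 2733 TPM, Col5a2 at 1090 TPM and Col6a1 at 838 TPM. In ESC without doxycycline the order was another, with Col18a1 at 212 TPM, Col9a2 at 9.54 TPM and Col2a1 at 4.98 TPM in front. Col18a1 encodes a basement-membrane multiplexin whose end fragment is endostatin, and it was the leading collagen in that library by a wide margin.

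WT MEF set against WT ESC showed the same contrast gene by gene. Of 23 measured collagens, 21 were higher and 2 lower in WT MEF, where 23.9% of the 11821 measured genes were higher and 30.1% lower. The median log2 difference was 4.82, beside -0.22 over all measured genes. Col1a1 stood at 26770 CPM in WT MEF against 479 CPM in WT ESC, 55.9-fold higher (54.4 to 57.5). Col8a1, a short-chain collagen of vessel wall and cornea, was at 1106 against 13.7 CPM, and Col11a1, a regulatory chain of cartilage fibrils, at 1020 against 14.2 CPM. The 2 lower genes were Col18a1, at 133 CPM in WT MEF against 327 CPM in WT ESC, and Col9a2, which encodes a coat collagen of cartilage fibrils, at 0.26 against 38.3 CPM.

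Over all libraries, 13 collagens were higher in each of the 6 MEF libraries than in any ESC or KSM library. How many of all genes share that order was not computed, so the count has no background. The 13 were Col1a1, Col1a2, Col3a1, Col5a1, Col5a2, Col6a2, Col8a1, Col10a1, Col12a1, Col14a1, Col15a1, Col16a1 and Col28a1. Col13a1, a transmembrane collagen of the neuromuscular junction, ran the other way against ESC, at 0 to 0.867 CPM over the MEF libraries and 1.26 to 6.41 CPM over the ESC libraries. Col5a3, Col7a1 and Col18a1 did not separate MEF from ESC or from KSM. Col18a1 ran from 82.4 to 407 CPM over MEF, 101 to 260 CPM over KSM and 327 to 643 CPM over ESC. Col5a3 ran from 24.6 to 511 CPM over MEF, 18.0 to 46.6 CPM over KSM and 2.96 to 101 CPM over ESC, and Col7a1 from 33.5 to 213 CPM over MEF, 14.5 to 46.3 CPM over KSM and 6.41 to 1015 CPM over ESC.

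Induction of c-Jun in ESC went with a marked rise of a small set of collagens. Relative to the uninduced line, 11 of 16 measured collagens were higher and 3 lower, with a median log2 difference of 2.34 against -0.09 over all 11255 measured genes, of which 21.3% were higher and 19.7% lower. Summed collagen stood at 2863 CPM with doxycycline against 758 CPM without. The steepest rise was in Col7a1, the anchoring-fibril collagen whose promoter window is printed above, at 1015 CPM with doxycycline, against 6.41 CPM without and 7.26 CPM in WT ESC. It was 158-fold higher than in the uninduced line (92.5 to 298) and 140-fold higher than in WT ESC (111 to 178). At 240 TPM it was also above its level in every MEF library, where it lay between 8.31 and 47.7 TPM.

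The fibrillar chains moved unevenly. Col1a1, the alpha1 chain of type I collagen, was at 507 CPM with doxycycline, against 6.90 CPM without and 479 CPM in WT ESC, 73.5-fold above the uninduced line (43.7 to 135) and level with WT (1.06-fold, 0.997 to 1.12). Its partner Col1a2 was at 11.7 CPM with doxycycline, against 8.87 CPM without and 388 CPM in WT ESC. Col1a2 was called neither way against the uninduced line (1.32-fold, 0.717 to 2.49) and was 33.2-fold lower than in WT (23.5 to 48.6).
Col5a1, the main chain of the type V collagen that starts fibrils, was at 415 CPM with doxycycline, against 21.2 CPM without and 192 CPM in WT, 19.6-fold above the uninduced line. Its partner Col5a2 was at 4.38 CPM with doxycycline, against 2.96 CPM without and 121 CPM in WT. Col5a3, a further type V chain, was at 101 CPM with doxycycline, against 2.96 CPM without and 13.6 CPM in WT, 34.2-fold above the uninduced line (15.5 to 94.0). Col3a1 stayed low at 4.02 CPM with doxycycline and 2.46 CPM without, against 394 CPM in WT ESC. So Col1a1 and Col5a1 were high in the induced library while Col1a2, Col5a2 and Col3a1 were at 12 CPM or less in both libraries of the inducible line.

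Among the minor fibrillar and other classes, Col27a1, a fibrillar collagen of cartilage, was at 61.7 CPM with doxycycline, against 3.45 CPM without and 6.58 CPM in WT ESC. The fibril-associated genes Col12a1, Col16a1 and Col22a1 were at 26.3, 13.9 and 10.6 CPM with doxycycline, against 3.94, 0.986 and 3.45 CPM without. In WT ESC they were at 143, 5.71 and 4.07 CPM, so that Col12a1, a coat of type I fibrils, was higher than in the uninduced line and lower than in WT. The same held for the collagen VI chains Col6a1, at 12.8 CPM with doxycycline against 1.97 CPM without and 43.9 CPM in WT, and Col6a2, at 5.84 against 0.986 and 27.5 CPM.
Col23a1, a transmembrane collagen, was at 10.2 CPM with doxycycline against 0.493 CPM without, which is 1 count, and the ratio of 20.7 has an interval of 3.43 to 848. The fold of Col16a1 rests on 2 counts without doxycycline (14.1, 3.64 to 120), and that of Col6a2 on 2 counts as well (5.93, 1.39 to 53.1). These low counts leave the direction clear of counting error but the size loose.

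The 3 lower genes were cartilage and membrane collagens. Col2a1, the fibrillar collagen of cartilage, was at 1.83 CPM with doxycycline against 14.8 CPM without, 8.10-fold lower (3.11 to 26.7). Col9a2 was at 2.92 against 15.8 CPM and Col13a1 at 1.46 against 6.41 CPM. WT ESC had 4.45, 38.3 and 1.26 CPM of the same genes, so Col13a1 was no lower with doxycycline than in WT. Col18a1 hardly differed, at 638 CPM with doxycycline, 643 CPM without and 327 CPM in WT ESC.

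**Figure D2:**
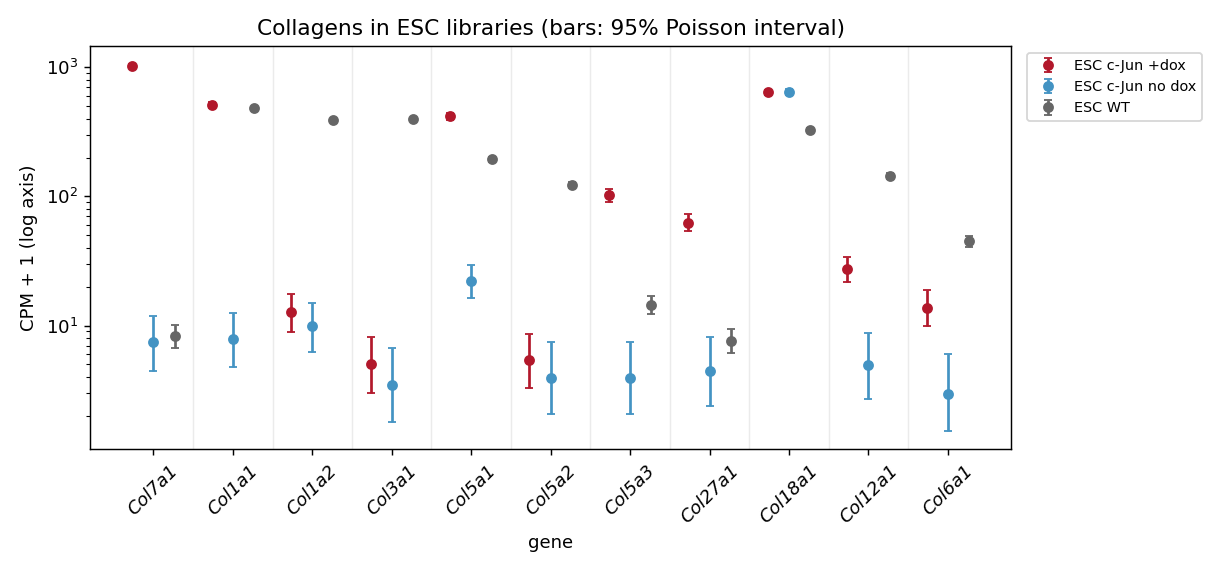
Levels of 11 collagens in ESC with doxycycline (red), without doxycycline (blue) and in WT ESC (grey), as CPM + 1 on a log axis with 95% Poisson intervals. Col7a1, Col5a3 and Col27a1 in the induced library lie above both other libraries, whereas Col1a2, Col3a1 and Col5a2 lie at 12 CPM or less in both libraries of the inducible line and far above that in WT.

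The choice of control mattered for ESC, because the uninduced line and WT ESC differed. Without doxycycline, 13 of 18 measured collagens were lower than in WT ESC and 2 higher, where 18.3% of 11053 genes were lower and 6.32% higher. Col3a1 was 160-fold lower (68.5 to 493), at 2.46 CPM in the uninduced line against 394 CPM in WT, and Col1a1 69.4-fold lower. Col2a1 and Col13a1 were higher, by 3.32-fold and 5.09-fold. Set against WT ESC, the induced library had 7 collagens higher and 9 lower, where 14.6% of genes were higher and 23.1% lower. The 7 were Col5a1, Col5a3, Col7a1, Col16a1, Col22a1, Col23a1 and Col27a1, and all 7 were also higher than in the uninduced line, while Col9a2 was lower than in both.

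Markers of fibroblasts moved with the control too. Their 12 genes summed to 1514 CPM with doxycycline, against 1894 CPM without and 3789 CPM in WT ESC, with 6, 3 and 7 of the 12 at 5 CPM or more. Dcn was at 0.365, 0.493 and 12.2 CPM in the same order, and Prrx1 at 0.73, 0.493 and 8.81 CPM. Members of the list moved both ways. Fn1 was at 642 CPM with doxycycline against 1708 CPM without, whereas Vim was at 707 against 169 CPM, Fbn1 at 128 against 6.41 CPM, Pdgfra at 15.3 against 0.493 CPM and Thy1 at 11.0 against 2.96 CPM. Lum, Twist2 and Fap had no count with doxycycline. Basal epithelium, in which type VII collagen is made, also has markers that moved: its 8 genes summed to 1651 CPM with doxycycline against 648 CPM without and 1290 CPM in WT. Most of that sum was Cdh1, at 993, 435 and 952 CPM in the same order, and Itga6, at 425, 79.9 and 211 CPM. Epcam hardly differed, at 121, 124 and 108 CPM. Lamb3, a laminin of the epithelial anchor, was at 69.0 CPM with doxycycline against 1.48 CPM without, and Itgb4 at 36.1 against 6.90 CPM, while Krt14 was at 1.83 against 0 CPM and Trp63 at 0 against 0.493 CPM. The part of these marker changes in the collagen differences was not tested.

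Ratios of partner chains set the induced ESC apart from all other libraries. The TPM ratio of Col1a1 to Col1a2 was 47.5 with doxycycline (33.5 to 69.8), against 0.852 without (0.392 to 1.81) and 1.35 in WT ESC, and over the 12 other libraries it ran between 0.39 and 1.49. The ratio of Col5a1 to Col5a2 was 74.5 with doxycycline (42.5 to 145), against 5.64 without (2.39 to 16.2), which rests on 43 and 6 counts, and 0.43 to 1.25 elsewhere. Col1a1 to Col3a1 stood at 150 with doxycycline against 0.314 to 4.55 in the 12 others. The pair Col6a1 and Col6a2, which lie near each other on chromosome 10, kept a narrower range, from 1.17 in MEF with c-JunDN to 3.69 in KSM with Oct4, with 2.05 in ESC with doxycycline. Among KSM libraries the type I ratio was lowest with Oct4, at 0.39 (0.355 to 0.428), against 1.33 with DR (1.22 to 1.46).

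**Figure D3:**
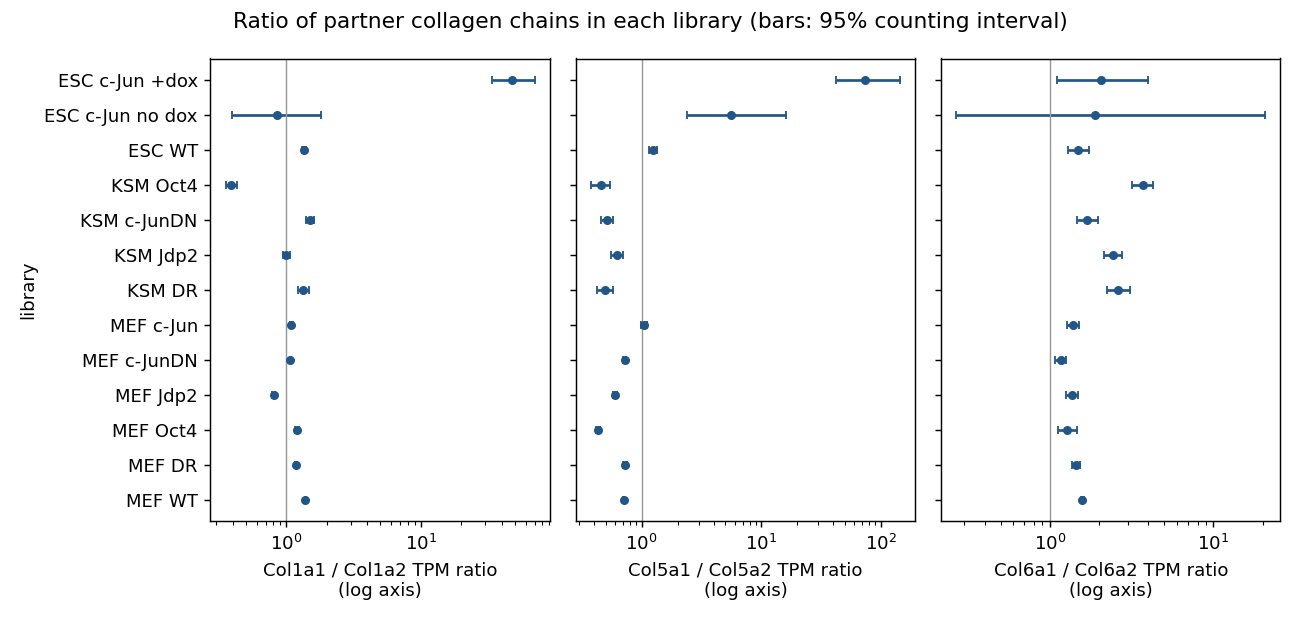
TPM ratio of partner chains on log axes, with 95% counting intervals, for type I (left), type V (middle) and type VI (right) in each of the 13 libraries. ESC with doxycycline lies at 47.5 for type I and 74.5 for type V, far to the right of the other libraries, but within the spread of the others for type VI.

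In MEF, c-Jun went with lower levels of 12 collagens, the type I chains among them, and higher levels of 4. Against DR, 12 of 28 measured collagens were lower and 4 higher, where 9.70% of 11284 genes were lower and 8.22% higher, and the median log2 difference was -0.91 beside 0.02 over all genes. Of 6 measured fibril-associated genes 4 were lower, and of 11 fibrillar genes 4 were lower and 2 higher. Summed collagen was 20300 CPM with c-Jun against 45800 CPM with DR. The 4 MEF comparisons in this and the next paragraphs share the DR library, so their values are set side by side and not counted as separate support.
Col1a1 was at 4572 CPM with c-Jun, against 12090 CPM with DR and 26770 CPM in WT MEF, 2.64-fold below DR (2.58 to 2.71). Col1a2 was at 4590 against 11230 CPM and Col5a2 at 1295 against 3471 CPM, while Col3a1 at 4048 against 7321 CPM, Col5a1 at 1716 against 3202 CPM, Col6a1 at 851 against 1604 CPM and Col6a2 at 575 against 1041 CPM fell short of the 2-fold line. All 7 of these abundant genes were thus at lower values with c-Jun, and the TPM ratio of Col5a1 to Col5a2 was 1.04 with c-Jun against 0.726 with DR.

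Among collagens with over 10 counts in both libraries, Col11a1 and Col12a1 were lowest relative to DR. Col11a1 was at 19.9 CPM with c-Jun against 369 CPM with DR, 18.6-fold lower (13.4 to 26.6), and Col12a1 at 618 against 4113 CPM, 6.66-fold lower (6.26 to 7.09). WT MEF had 1020 and 8739 CPM of these genes. Col14a1, which like Col12a1 coats type I fibrils, was at 5.91 against 34.5 CPM, Col8a1 at 175 against 444 CPM, Col20a1 at 1.07 against 9.78 CPM and Col28a1, a collagen of peripheral nerve, at 2.69 against 11.3 CPM. Col8a2, the partner of Col8a1, had no count with c-Jun against 9.78 CPM with DR, at least 6.07-fold lower when 3 counts are put in place of 0, and Col19a1 and Col6a6 had none against 5.15 CPM, at least 3.20-fold lower.
Col5a3 went up as these fell, at 511 CPM with c-Jun, against 51.5 CPM with DR and 150 CPM in WT MEF, 9.92-fold above DR (8.07 to 12.3). Col27a1 was at 93.5 against 35.0 CPM, Col18a1 at 407 against 183 CPM and Col23a1 at 15.6 against 6.18 CPM with DR. Against WT MEF, 5 collagens were higher and 13 lower, where 11.4% of genes were higher and 13.5% lower. The 5 include these 4, and the 13 include 9 of the 12 that were lower than with DR. Fibroblast markers summed to 13670 CPM with c-Jun against 25180 CPM with DR, with 11 and 12 of 12 at 5 CPM or more, and macrophage markers to 121 against 32.4 CPM, with 3 and 2 of 10 at 5 CPM or more. Vim at 5561 against 3427 CPM and Prrx1 at 625 against 580 CPM were higher, and the other fibroblast markers lower. Csf1r, at 78.4 against 4.64 CPM, and Cd14, at 29.0 against 6.70 CPM, made up most of the macrophage sum. Cd68, Tyrobp and Aif1 were also at higher values with c-Jun, while Ptprc, Emr1, C1qa, C1qb and C1qc were at lower ones. The part of these shifts in the collagen values was not tested.

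**Figure D4:**
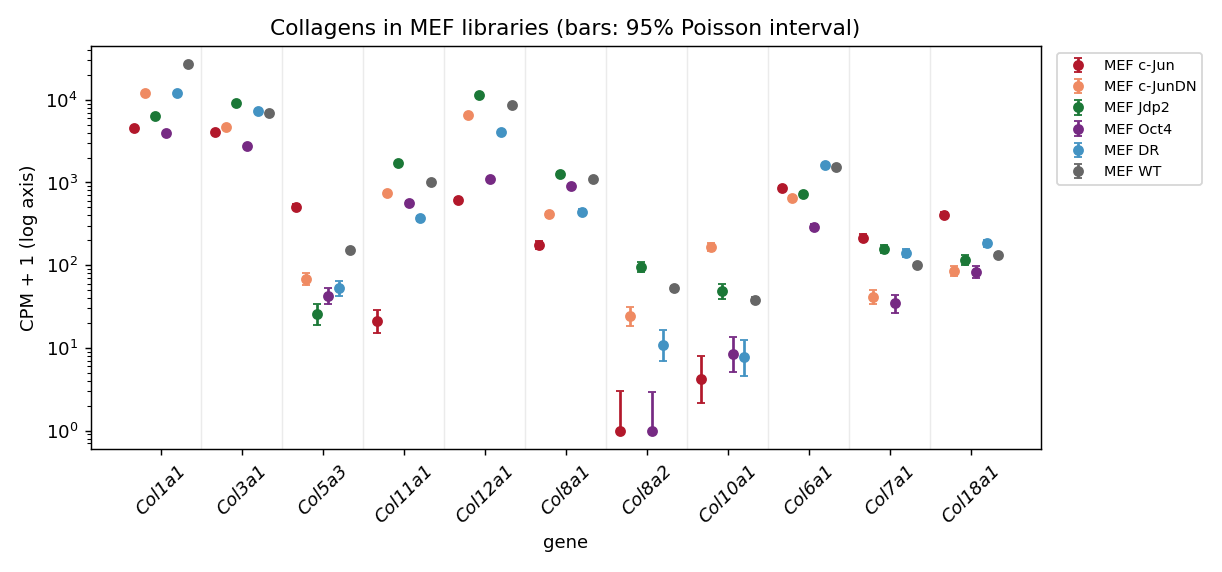
Levels of 11 collagens in the 6 MEF libraries, as CPM + 1 on a log axis with 95% Poisson intervals. Within each gene the libraries run from c-Jun (red) at the left to DR (blue) and WT (grey) at the right. Col11a1 is lowest with c-Jun and highest with Jdp2, and Col10a1 is highest with c-JunDN.

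With c-JunDN, 20 of 29 measured collagens were within 2-fold of DR. The other 9 divide into 6 higher and 3 lower, where 3.28% of 11175 genes were higher and 2.86% lower, and summed collagen was 45510 CPM against 45800 CPM with DR. Col1a1 was at 11950 against 12090 CPM, Col1a2 at 12180 against 11230 CPM, Col5a1 at 3194 against 3202 CPM and Col5a2 at 3498 against 3471 CPM, while Col3a1 was at 4707 against 7321 CPM. None of these abundant chains was called in the c-JunDN library, and the 20 collagens called neither way ran between log2 differences of -0.99 and 0.95.
Col10a1, the collagen of hypertrophic cartilage, was the exception in size. The c-JunDN library held 165 CPM of it, against 6.70 CPM with DR and 37.1 CPM in WT MEF, 24.7-fold above DR (14.3 to 46.8) and 4.45-fold above WT (3.90 to 5.07). Nt5dc1, the gene it overlaps, had 3.04 CPM in the c-JunDN library and 8.24 CPM in the DR library. The 12 markers of cartilage and bone summed to 57.7 CPM in the c-JunDN library, against 86.0 CPM in the DR library and 113 CPM in WT MEF, with 4, 3 and 3 at 5 CPM or more, and members differed in direction. Sox9 was at 5.64 CPM with c-JunDN and 25.8 CPM in the DR library and Runx2 at 23.0 against 39.1 CPM, whereas Pth1r was at 17.3 against 13.9 CPM, Acan at 5.20 against 3.09 CPM and Bglap at 2.60 against 0 CPM. Ihh, Ibsp and Matn1 were at 0.434 CPM each with c-JunDN. Their part in the Col10a1 difference was not tested.

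Further up were Col11a1, at 751 CPM with c-JunDN and 369 CPM with DR, Col2a1 at 87.6 against 34.5 CPM, Col8a2 at 23.4 against 9.78 CPM and Col15a1, a multiplexin of vessel and muscle basement membrane, at 16.9 against 6.70 CPM. Each of these 4 was lower than in WT MEF, which had 1020, 153, 51.6 and 26.2 CPM of them. Col25a1, a transmembrane collagen of neurons, had 6.07 CPM with c-JunDN and no count with DR, at least 3.93-fold higher, and 1.04 CPM in WT MEF.
The 3 lower genes were Col7a1, at 40.3 CPM with c-JunDN and 140 CPM with DR, 3.47-fold lower (2.73 to 4.45), Col6a1, at 653 against 1604 CPM, and Col18a1, at 83.7 against 183 CPM. Col6a2 was at 525 against 1041 CPM, just short of the line. Against WT MEF, Col10a1 and Col25a1 were still higher and Col6a1 and Col7a1 still lower, and 7 collagens were lower in all and 5 higher, where 11.3% of genes were lower and 10.5% higher. Col7a1 thus stood at 40.3 CPM with c-JunDN and at 213 CPM with c-Jun, with DR at 140 CPM between them.

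Jdp2 in MEF went with more of the short-chain network and with less collagen VI. Of 28 measured collagens, 6 were higher and 6 lower, where 5.96% of 11232 genes were higher and 6.38% lower. All 3 short-chain genes were higher: Col8a1 was at 1267 CPM with Jdp2 against 444 CPM with DR, Col8a2 at 94.6 against 9.78 CPM and Col10a1 at 47.6 against 6.70 CPM. WT MEF had 1106, 51.6 and 37.1 CPM of the same genes, so none of the 3 passed 2-fold against WT. The fold of Col8a2 over DR was 9.67 (6.01 to 16.4) and that of Col10a1 was 7.10 (3.95 to 13.9).
Col12a1 was at 11420 CPM with Jdp2 against 4113 CPM with DR and 8739 CPM in WT, and Col11a1 at 1728 CPM against 369 and 1020 CPM. Col28a1 was at 55.6 CPM with Jdp2 against 11.3 CPM with DR and 8.78 CPM in WT, 4.91-fold above DR (3.08 to 8.16), and it was the one collagen at least 2-fold higher than both controls.

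Collagen VI was lower with Jdp2, with Col6a1 at 721 CPM against 1604 CPM with DR and Col6a2 at 496 against 1041 CPM. Col5a3 was at 24.6 against 51.5 CPM and Col24a1, a fibrillar collagen of bone and cornea, at 11.8 against 28.8 CPM. Col19a1 and Col6a6 had 1 count each with Jdp2 against 10 counts each with DR, a ratio of 9.64-fold lower with an interval of 1.37 to 418. Against WT MEF, 5 collagens were higher and 8 lower, where 12.2% of genes were higher and 14.5% lower, and the 8 include Col5a3 and Col6a1. The abundant chains of types I, III and V did not pass 2-fold against DR. Col1a1 was at 6281 against 12090 CPM, Col1a2 at 8559 against 11230 CPM and Col3a1 at 9138 against 7321 CPM. Col5a1 was at 1858 against 3202 CPM and Col5a2 at 2445 against 3471 CPM. All 16 collagens called neither way ran between log2 differences of -0.94 and 0.75. In the Jdp2 library the order in TPM was led by Col1a2 at 3633 and Col3a1 at 3585 TPM, with Col1a1 behind them at 2919 TPM. The 12 cartilage and bone markers summed to 55.0 CPM with Jdp2 against 86.0 CPM with DR, with 3 of 12 at 5 CPM or more in each, with Sox9 at 6.41 against 25.8 CPM and Runx2 at 16.6 against 39.1 CPM. Pth1r at 17.1 against 13.9 CPM, Comp at 3.74 against 0 CPM, Hapln1 at 3.21 against 0.515 CPM and Bglap at 2.67 against 0 CPM were at higher values, and Ihh, Ibsp and Matn1 were at 0 with Jdp2. Their part in the collagen values was not tested.

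Oct4 in MEF went with the broadest fall. Of 29 measured collagens, 18 were lower and 4 higher than with DR, where 10.2% of 11252 genes were lower and 11.6% higher, and the median log2 difference was -1.42 beside 0.01 over all genes. This library was quantified by its authors on Ensembl genes, unlike the others, so that differences in gene models cannot be told apart from differences in RNA. Of 11 measured fibrillar genes 6 were lower, of 6 fibril-associated genes 5, and all 3 measured beaded-filament genes were. Summed collagen was 17780 CPM with Oct4 against 45800 CPM with DR.
Collagen VI and type I were among the lower genes. Col6a1 was at 287 CPM with Oct4, against 1604 CPM with DR and 1527 CPM in WT MEF, 5.60-fold below DR (5.11 to 6.15), and Col6a2 at 220 against 1041 CPM with DR. Col1a1 was at 4013 against 12090 CPM, Col1a2 at 3025 against 11230 CPM, Col3a1 at 2741 against 7321 CPM and Col5a1 at 1587 against 3202 CPM. Col5a2, at 2953 against 3471 CPM, was the one abundant fibrillar chain that was not called.

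Further lower genes with Oct4 were Col12a1, at 1090 against 4113 CPM with DR, Col16a1, a fibril-associated collagen, at 95.7 against 327 CPM, Col7a1, at 33.5 against 140 CPM, and Col18a1, at 82.4 against 183 CPM. Col24a1 rested on 3 counts at 1.59 CPM against 28.8 CPM, 18.1-fold lower (5.88 to 90.3). Col11a2, Col19a1 and Col6a6 had 1, 2 and 1 counts with Oct4 against 18, 10 and 10 with DR, with intervals of the fall of 2.75 to 727, 1.03 to 45.5 and 1.38 to 420. Col28a1 was at 4.25 against 11.3 CPM. Col8a2 and Col20a1 had no count with Oct4 against 9.78 CPM each, at least 6.13-fold lower, and Col9a3 none against 5.15 CPM, at least 3.23-fold lower.
The 4 higher genes were Col15a1, at 35.6 CPM with Oct4 against 6.70 CPM with DR and 26.2 CPM in WT, Col23a1, at 16.5 against 6.18 and 2.99 CPM, Col8a1, at 897 against 444 and 1106 CPM, and Col25a1, at 5.85 CPM against no count and 1.04 CPM. Against WT MEF, Col23a1 and Col25a1 were the 2 higher collagens and 16 were lower, 11 of them among the 18 above, where 14.6% of genes were higher and 14.8% lower. Fibroblast markers summed to 19210 CPM with Oct4 against 25180 CPM with DR, with 11 and 12 of 12 at 5 CPM or more, and macrophage markers to 154 against 32.4 CPM, with 8 and 2 of 10 at 5 CPM or more. The fibroblast list moved both ways. Vim at 8984 against 3427 CPM and Thy1 at 1086 against 417 CPM were higher with Oct4. The rest were lower, with Fn1 at 7487 against 17000 CPM and Pdgfra at 10.1 against 496 CPM. Their part in the collagen values was not tested.

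The DR library itself differed from WT MEF, which touches every MEF value above. Of 28 measured collagens, 10 were lower and 4 higher with DR, where 10.5% of 11096 genes were lower and 9.79% higher. Col10a1 was at 6.70 CPM with DR against 37.1 CPM in WT, Col8a2 at 9.78 against 51.6 CPM, Col2a1 at 34.5 against 153 CPM, Col15a1 at 6.70 against 26.2 CPM and Col5a3 at 51.5 against 150 CPM. Col1a1, Col5a2, Col8a1, Col11a1 and Col12a1 were lower by 2.04-fold to 2.76-fold. The 4 higher ones rested on 10 to 19 counts with DR: Col20a1 was at 9.78 against 0.846 CPM, Col11a2 at 9.27 against 1.24 CPM, Col6a6 at 5.15 against 1.30 CPM and Col9a3 at 5.15 against 0.065 CPM, where WT had 1 count of it. Col1a2, Col3a1, Col5a1, Col6a1 and Col6a2 were within 2-fold.

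By day 3, KSM cells with DR held little of the fibroblast's collagen RNA. Set against MEF with DR, 24 of 28 measured collagens were lower and none higher, where 19.9% of 11476 genes were lower and 18.7% higher, with a median log2 difference of -2.90 beside 0.07 over all genes. Col12a1 fell furthest, to 18.8 CPM in KSM with DR against 4113 CPM in MEF with DR, 219-fold lower (164 to 298). Col8a1, at 444 CPM in MEF with DR, was lower by a fold between 30.9 and 72.6. Col1a2 was at 350 against 11230 CPM, Col1a1 at 426 against 12090 CPM, Col5a1 at 117 against 3202 CPM and Col3a1 at 405 against 7321 CPM. Col14a1 had 1 count in KSM against 67 in MEF with DR (86.3-fold lower, 15.0 to 3458), and Col24a1 had none, at least 24.0-fold lower.
Collagen VI was lower by less, with Col6a1 at 239 against 1604 CPM and Col6a2 at 85.6 against 1041 CPM. The 4 genes called neither way were Col2a1, at 43.6 against 34.5 CPM, Col18a1, at 260 against 183 CPM, Col11a2, at 5.20 against 9.27 CPM, and Col23a1, at 4.00 against 6.18 CPM. Fibroblast markers summed to 4811 CPM in KSM with DR against 25180 CPM in MEF with DR, with 11 and 12 of 12 at 5 CPM or more. Each marker was at a lower value in KSM with DR, but by unlike amounts. Markers that hardly differed were Vim, at 3302 against 3427 CPM, and Twist1, at 55.6 against 63.3 CPM, whereas Fn1 was at 688 against 17000 CPM. The part of these markers in the collagen difference was not tested.

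Within KSM cells few collagens differed from DR by 2-fold, and Col2a1 did so by the most among genes with counts on both sides. The 3 comparisons share the KSM library with DR, so their values are set side by side. Col2a1 was at 3.62 CPM in KSM cells given Oct4, 137 CPM in those given c-JunDN and 166 CPM in those given Jdp2, against 43.6 CPM with DR. It was 12.0-fold lower with Oct4 (6.62 to 24.0), 3.14-fold higher with c-JunDN (2.54 to 3.92) and 3.81-fold higher with Jdp2 (3.08 to 4.74). The cartilage and bone markers were low in all 4 libraries, summing to 14.8, 25.9 and 35.2 CPM against 19.99 CPM in the same order, with 1, 1, 3 and 1 of 12 at 5 CPM or more.

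With Oct4, 3 of 17 measured collagens were lower and 1 higher, where 6.80% of 10834 genes were lower and 4.74% higher. Besides Col2a1, Col1a1 was at 183 CPM against 426 CPM with DR and Col18a1 at 101 against 260 CPM. Col25a1 was at 6.03 CPM with Oct4 and had no count with DR, at least 5.03-fold higher. Col1a2 at 513 against 350 CPM and Col3a1 at 691 against 405 CPM were at higher values but not called, while Col5a1 at 58.2 against 117 CPM and Col5a2 at 101 against 187 CPM were at lower ones. Col6a1 was at 270 against 239 CPM and Col6a2 at 68.8 against 85.6 CPM.
With c-JunDN, Col2a1 was the only one of 17 measured collagens to be called, higher, where 1.69% of 10799 genes were higher and 1.75% lower, and the median log2 difference was 0.48 beside 0.02 over all genes. Col1a1 was at 652 CPM against 426 CPM with DR, Col1a2 at 480 against 350 CPM, Col3a1 at 329 against 405 CPM, Col5a1 at 175 against 117 CPM, Col5a2 at 268 against 187 CPM, Col6a1 at 176 against 239 CPM and Col6a2 at 97.0 against 85.6 CPM.

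With Jdp2, 4 of 18 measured collagens were higher and none lower, where 3.13% of 10881 genes were higher and 1.34% lower, and the median log2 difference was 0.66 beside -0.02 over all genes. The 4 were Col2a1, Col5a3, at 46.6 CPM with Jdp2 against 18.0 CPM with DR, Col1a2, at 858 against 350 CPM (2.45-fold, 2.27 to 2.65), and Col7a1, at 46.3 against 21.6 CPM. Col1a1 at 787 against 426 CPM, Col5a1 at 203 against 117 CPM, Col5a2 at 257 against 187 CPM, Col6a1 at 345 against 239 CPM, Col6a2 at 133 against 85.6 CPM and Col3a1 at 313 against 405 CPM were not called. Over the KSM libraries, summed collagen was 2123 CPM for Oct4, 2698 CPM for c-JunDN and 3545 CPM for Jdp2, against 2239 CPM for DR. Fibroblast markers summed to 3807, 4692 and 4977 CPM against 4811 CPM, and members moved both ways. In the same order, Vim was at 2230, 2588 and 2781 CPM against 3302 CPM. Fn1 was at 1055, 1221 and 1430 CPM against 688 CPM.

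**Figure D5:**
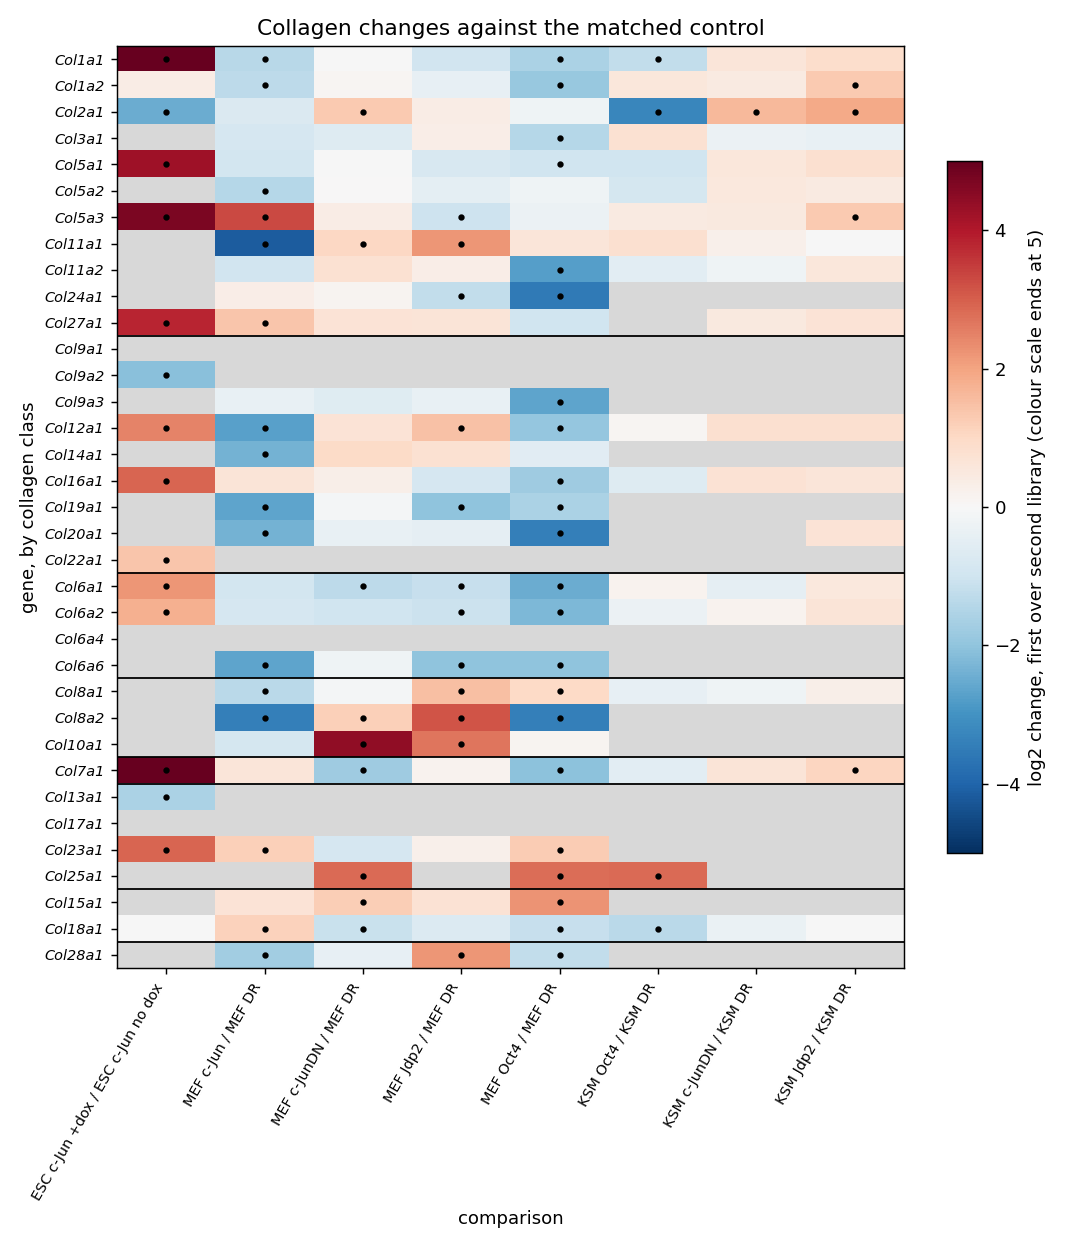
Log2 change of each collagen (rows) against the matched control in the 8 comparisons (columns), with red for higher and blue for lower in the first-named library, grey for not measured and a dot for 2-fold or more. Blue prevails in MEF with c-Jun and with Oct4, and red in ESC with doxycycline.

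The same factor could be compared in different cells where the controls were separate. For c-Jun, Col5a3, Col23a1 and Col27a1 were higher both in ESC with doxycycline against without and in MEF with c-Jun against DR, and no collagen was lower in both. Col1a1 and Col12a1 went opposite ways. With WT ESC as the control, Col12a1 was lower with doxycycline, as in MEF, and Col1a1 was not called. For Oct4 in KSM and in MEF, Col25a1 was higher in both and Col1a1 and Col18a1 were lower in both. For c-JunDN, Col2a1 was higher in both, although it was not called in MEF against WT, and neither was Col18a1 with Oct4. For Jdp2 no collagen was called the same way in both while Col5a3 was called higher in KSM and lower in MEF. Differences between the settings were not tested. How often all genes were called the same way in both settings was not computed, so these counts have no background.

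Genes that fold, export, trim or bind collagen were followed from a list of 44, of which 43 were found. In ESC with doxycycline, 19 of 34 measured were higher and 2 lower than without, where 21.3% of all genes were higher and 19.7% lower, and the median log2 difference was 1.27 beside -0.09 over all genes. Bmp1, the proteinase that removes the procollagen C-propeptide, was at 404 CPM with doxycycline against 1.97 CPM without and 16.5 CPM in WT ESC, 205-fold above the uninduced line (79.9 to 754). Serpinh1, the collagen chaperone of the endoplasmic reticulum, was at 737 against 140 CPM without. Creb3l1 and Creb3l2, factors that raise secretory capacity, were at 86.5 and 82.9 CPM against 10.3 and 7.89 CPM, Ddr1, a collagen receptor, at 159 against 18.7 CPM and Fkbp14, a folding enzyme, at 18.6 against 1.97 CPM. The hydroxylation and folding group had 11 of 17 measured genes higher and none lower. Against WT ESC, 12 of 33 list genes were higher with doxycycline and 3 lower, where 14.6% of all genes were higher and 23.1% lower.

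In MEF with c-Jun, 4 of 38 measured list genes were higher and 5 lower than with DR, near the 8.22% and 9.70% of all genes. Among them were the collagen-binding integrin gene Itga2, at 36.5 CPM against 1.03 CPM, which is 2 counts (35.5-fold, 9.45 to 299), Pcolce2, an enhancer of propeptide removal, at 82.7 against 5.15 CPM, Bmp1, at 1952 against 536 CPM, Itga1, the integrin alpha1 chain that binds collagen, at 2.69 against 21.1 CPM, and Mrc2, an uptake receptor for collagen, at 189 against 621 CPM. With c-JunDN, 3 of 37 were higher and 2 lower, where 3.28% and 2.86% of all genes were, with Itga1 at 63.7 against 21.1 CPM with DR and 62.8 CPM in WT MEF. With Jdp2, 3 of 38 were higher and 6 lower, where 5.96% and 6.38% of all genes were, with Itga1 at 362 against 21.1 CPM, 17.2-fold higher (12.5 to 24.1), and Itga11, the fibrillar collagen receptor of fibroblasts, at 54.0 against 319 CPM. With Oct4, 5 of 37 were higher and 10 lower, where 11.6% and 10.2% of all genes were. The largest differences were in Leprel1, a prolyl 3-hydroxylase gene, at 77.6 against 4.64 CPM, Itga1 at 256 against 21.1 CPM, Pcolce2 at 63.8 against 5.15 CPM, Adamts14, an N-propeptide proteinase, at 3.19 against 40.2 CPM and Tll1, a relative of Bmp1, at 278 against 46.9 CPM. WT MEF had 268 CPM of Tll1, close to the Oct4 library. Itga1 thus stood below both controls with c-Jun, above both with Jdp2 and Oct4, and level with WT with c-JunDN.

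In KSM cells, 2 of 34 measured list genes were higher and 4 lower with Oct4 than with DR, where 4.74% of all genes were higher and 6.80% lower. With c-JunDN 3 of 36 were higher and 1 lower, where 1.69% and 1.75% of all genes were, and with Jdp2 2 of 35 were higher and 3 lower, where 3.13% and 1.34% were. Tll1 was at 28.1 CPM with Oct4 against 2.80 CPM with DR, 10.0-fold higher (4.68 to 25.6), and Itga1 at 10.7 CPM with c-JunDN against 2.40 CPM. Set against MEF with DR, KSM with DR had 24 of 38 list genes lower and 2 higher, where 19.9% of all genes were lower and 18.7% higher. Itga11 had no count in KSM with DR against 319 CPM in MEF with DR, at least 266-fold lower, and Adamts2 was at 1.20 against 113 CPM on 3 counts (94.4-fold lower, 31.9 to 462), while Pcolce2 was at 90.4 against 5.15 CPM. Most measured collagens and most measured list genes were thus lower together in KSM with DR than in MEF with DR. The hydroxylation and folding group had 9 of 18 measured genes lower and 1 higher.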

How the data were processed

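RNA from 13 mouse libraries was analysed. The 3 ChIP-seq samples were not used here. Per the labels' protocols, Trizol was used to extract RNA and the TruSeq RNA kit to prepare it, and bcl2fastq 2.15.0.4, Bowtie2 2.2.3, RSEM 1.1.21 and build mm9 are named in the submitters' processing notes. The deposited files hold the authors' RSEM expected counts per gene and, in 12 libraries, the authors' fraction of transcripts. The MEF library with Oct4 holds TPM as deposited, on 27729 Ensembl IDs, and 97.11% of its counts fall on names shared with the others.

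Expected counts were rounded, and TMM factors were computed with edgeR 4.0.16 (R 4.3.3) over 19781 shared names. CPM sets counts on a common scaled library total, and TPM is the fraction rescaled or the deposited value. Python 3.11.15, numpy 2.4.6, pandas 2.3.3 and scipy 1.17.1 did the rest. A call needed a 2-fold difference of log2(CPM + 1) and 5 CPM in 1 of 2 libraries. Intervals are exact conditional binomial or Poisson at 95% and cover counting error only, and a count of 0 was replaced by 3 counts for a fold written as "at least". With 1 library per group no dispersion can be estimated and no test was made, so differences compare libraries, not conditions. Every called collagen is named in its comparison with the matched control, beside the type I, III, V and VI chains Col1a1 to Col6a2 and up to 5 processing genes of largest change. Serpinh1 was added after its values were seen. The members, lists and classes were chosen with earlier results of these data known. Whether the counting used strand is not given in the sources used here. The scripts were tested on simulated data. Alternatives were total-count and median-of-ratios scaling, TPM, no filter or 10 CPM, a pseudocount of 0.5, an interval that leaves out 1, and WT as control.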

Additional observations from a re-analysis of the deposited data

Results flagged for a closer look

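The difference between the library with c-Jun and its matched control ran opposite ways in ESC and MEF for 2 collagens. Col1a1 had a log2 change of 6.01 in ESC with doxycycline against without, and of -1.40 in MEF with c-Jun against DR. Col12a1 had 2.46 in ESC and -2.73 in MEF. Both rest on the uninduced line as the ESC control: against WT ESC, Col12a1 had -2.40, the direction seen in MEF, and Col1a1 had 0.08 and was not called. The difference with Jdp2 ran opposite ways for Col5a3, with 1.33 in KSM and -1.04 in MEF, each against DR. Each value compares 1 library with 1 library, and the differences between settings were not tested.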

How the results depend on the processing

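Of 178 recomputed counts of called collagens, 158 stayed within 1.5 times the reported count. Of 1298 recomputed log2 changes of single genes, 1164 stayed within counting error of the reported value, and 10 of called genes changed sign. Changes of sign in genes that were not called were not counted apart. The settings of no filter and 10 CPM leave each log2 change as it was. Their 201 values each are among the 1164 by construction and say nothing of robustness. A gene with no count in 1 of the 2 libraries could be flagged only by a change of sign. Counts that moved by more were as follows, and the cause was not tested where the setting does not itself change which genes are measured. On the TPM scale, ESC with doxycycline against without had 7 higher and 1 lower, MEF with Jdp2 2 lower, MEF with Oct4 2 higher, and KSM with Oct4, ESC without doxycycline against WT and MEF with DR against WT 0 higher each. With no filter, KSM given Oct4 had 3 higher, c-JunDN 2 and Jdp2 9, KSM with DR against MEF with DR had 1 higher, and WT MEF against WT ESC 7 lower. At 10 CPM, KSM with Oct4 and MEF with DR against WT had 0 higher, and ESC without doxycycline against WT 1. Under total-count scaling, MEF with DR against WT had 6 lower. With the WT library as control, ESC with doxycycline had 7 higher and 9 lower, MEF with c-JunDN 7 lower and MEF with Oct4 2 higher. Among called genes, that control turned the log2 change of Col12a1 to -2.40, Col13a1 to 0.12, Col6a1 to -1.70 and Col6a2 to -2.06 in ESC with doxycycline. In MEF it turned Col20a1 to 0.17 with c-Jun and Col8a1 to -0.30 with Oct4. With c-JunDN it turned Col11a1 to -0.44, Col15a1 to -0.60, Col2a1 to -0.79 and Col8a2 to -1.11. Among genes not called, Col1a2, Col3a1 and Col5a2 with doxycycline were at higher values than in the uninduced line and lower than in WT ESC. They were at 11.7, 4.02 and 4.38 CPM with doxycycline, against 388, 394 and 121 CPM in WT ESC. The median of all genes moved from -0.09 to 0.28 on the TPM scale in ESC with doxycycline against without, and from -0.10 to 0.29 under total-count scaling in MEF with DR against WT. Depth limits the rarer chains: a gene at 5.15 CPM in MEF with DR rests on 10 counts. No paired analysis was possible because each group has 1 library, and no replicate could be left out.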
